A study of Mus musculus with 18 samples.

Results

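The Schlafen genes Slfn1, Slfn2, Slfn3, Slfn4, Slfn5, Slfn8 and Slfn9 were described in bone marrow-derived macrophages (BMMs) with and without lipopolysaccharide (LPS). The 7 genes were found by symbol in the series' comparison tables and matched by Ensembl gene identifier to the per-library tables, which list 38887 genes. The RNA-seq data came from adult female C57BL/6J mice of 3 genotypes. WT cells carried the Lyz2-Cre allele alone. GILZ KO cells carried Lyz2-Cre and a floxed exon of Tsc22d3, the gene of the glucocorticoid-induced leucine zipper (GILZ). GILZ TG cells carried Lyz2-Cre and a Gilz-1 cDNA behind a loxP-flanked stop in the ROSA26 locus. All groups therefore carried Cre, which the Lyz2 promoter drives in myeloid cells, so that deletion and overexpression were limited to cells that had expressed Lyz2. Marrow was differentiated for 6 days with 50 ng/ml M-CSF, and cells were left untreated or given 100 ng/ml LPS for 4 h, with 3 independent preparations in each of the 6 groups and 18 libraries in all.

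Schlafen proteins form a mammalian family that is read in 3 size classes. Slfn1 and Slfn2 are the short members, Slfn3 and Slfn4 the intermediate ones, and Slfn5, Slfn8 and Slfn9 the long ones, whose C-terminal part resembles a superfamily I RNA helicase and carries a nuclear localisation signal. Many members are induced by type I interferon, and in macrophages LPS sets off interferon beta production through TLR4 and the adaptor TRIF. Slfn2 is known for keeping T cells and monocytes in quiescence and for protecting tRNA from cleavage, and Slfn4 is known from myeloid cells.

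The libraries held 14583055 to 38557029 expected counts (median 24450362). The targeted gene Tsc22d3 followed the labels in untreated cells, where WT, GILZ KO and GILZ TG had 16.5 ± 2.08, 2.34 ± 0.46 and 156 ± 3.93 TPM (SD, n = 3). TPM is the share of a library's transcripts, scaled by transcript length and depth. After LPS it stood at 5.15 ± 0.63, 2.91 ± 0.39 and 132 ± 7.64 TPM in the same order, and the GILZ KO to WT difference no longer passed the edgeR test (log2 fold change -0.69, adjusted p = 0.15, 0.00605 with DESeq2). The macrophage markers, among them Adgre1 and Csf1r, summed to 3825 to 5021 TPM in all 18 libraries. T cell markers summed to 1.17 to 3.94 TPM, with Cd3e, Cd3d and Cd8a at 0 in all 18 libraries, and Lck (up to 3.56 TPM) and Cd4 (up to 0.92 TPM) above 0 in all 18. GILZ TG replicates 1 and 2 stood apart from the other libraries by their stromal, neutrophil and B lineage markers, whose values are given beside the Slfn4 result. In bulk libraries, fewer cells expressing a gene and less RNA per cell cannot be told apart.

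The 7 genes lie together on mouse chromosome 11 (chr11:82951349-83215154, GRCm38, GENCODE M21), over 263.8 kb. In genomic order these are Slfn5, Slfn9, Slfn8, Slfn2, Slfn1, Slfn4 and Slfn3, of which 5 are read from the plus strand and Slfn9 and Slfn8 from the minus strand. Promoters are shown here because the family is known as interferon-induced. They were taken from RefSeq (GRCm38.p6), in which all 7 members matched, and are written 5′ to 3′ on the strand of the gene. Each covers the 250 bases before the start that RefSeq gives. That start differs from the GENCODE one for Slfn5 and Slfn1. The Slfn5 window lies inside the GENCODE gene (chr11:82951349-82964840), and that of Slfn1 ends short of the GENCODE start at 83116849. The interferon-stimulated response element (ISRE) core, spelled GAAANNGAAA on either strand, is a site bound by factors of the interferon response, IRF proteins among them. It was found in the 3 long members and in none of the short or intermediate ones, against 2.98% of all 32851 promoters of that length. The capitals mark it:
Slfn5, chr11:82951852-82952101, plus strand: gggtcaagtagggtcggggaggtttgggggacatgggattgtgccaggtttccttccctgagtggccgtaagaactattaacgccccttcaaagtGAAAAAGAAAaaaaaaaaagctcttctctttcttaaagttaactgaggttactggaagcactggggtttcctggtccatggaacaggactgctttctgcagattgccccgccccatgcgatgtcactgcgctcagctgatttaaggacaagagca
Slfn8, chr11:83020811-83021060, minus strand: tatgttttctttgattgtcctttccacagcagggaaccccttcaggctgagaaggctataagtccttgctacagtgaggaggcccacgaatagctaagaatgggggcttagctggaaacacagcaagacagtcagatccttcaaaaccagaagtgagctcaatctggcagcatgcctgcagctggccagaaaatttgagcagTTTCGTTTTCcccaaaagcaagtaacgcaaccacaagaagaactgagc
Slfn9, chr11:82991831-82992080, minus strand: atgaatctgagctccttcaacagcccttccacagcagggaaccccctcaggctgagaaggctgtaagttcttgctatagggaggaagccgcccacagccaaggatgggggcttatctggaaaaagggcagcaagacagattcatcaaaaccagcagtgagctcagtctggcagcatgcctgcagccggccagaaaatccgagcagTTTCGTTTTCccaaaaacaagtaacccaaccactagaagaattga

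In Slfn8 and Slfn9 the core reads GAAAACGAAA on the strand opposite to the gene, 48 to 39 and 45 to 36 bases before the start. In Slfn5 it reads GAAAAAGAAA on the strand of the gene, at the head of a run of A. There it lies 155 to 146 bases before the RefSeq start, within the gene as GENCODE gives it. The promoters of Slfn8 and Slfn9 were 80.4% identical in a global alignment, whereas the other 20 pairs of members lay between 44.5% and 51.9%. The STAT dimer motif spelled TTCNNNGAA was found in none of the 7 promoters and in 7.02% of all, and the kappaB consensus was found in Slfn1 and Slfn9 and in 3.9% of all. A match is a description of the letters, and no match says only that they are not in this window.

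The 4 short and intermediate members shared another stretch. The longest run of letters common to their promoters, on the strand of the gene, was ACTTCCTGG (9 bases), which holds on the opposite strand the GGAA letters of ETS factor sites, the family of the macrophage factor PU.1. It lay 74 to 66, 55 to 47, 42 to 34 and 73 to 65 bases before the RefSeq start of Slfn1, Slfn2, Slfn3 and Slfn4. Of all promoters 0.7% held the run on either strand, and none of the 3 long members did. The run was found by comparing these sequences after they had been seen, so its share is a description. The stretches around it, with the run in capitals, were:
Slfn1, chr11:83116734-83116769, plus strand: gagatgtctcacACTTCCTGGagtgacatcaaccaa
Slfn2, chr11:83065045-83065080, plus strand: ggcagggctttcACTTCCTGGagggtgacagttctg
Slfn3, chr11:83191276-83191311, plus strand: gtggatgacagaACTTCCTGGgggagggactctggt
Slfn4, chr11:83175101-83175136, plus strand: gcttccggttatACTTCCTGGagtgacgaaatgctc

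Untreated macrophages already contained 5 of the 7 transcripts at over 10 TPM, while Slfn1 and Slfn4 were close to absent. Slfn2 was the most abundant member, at 295, 290.3 and 289.7 TPM in the WT libraries. Slfn9 followed at 45.2, 39.6 and 27.1 TPM. Slfn5 had 20.6, 15.3 and 13.0 TPM, Slfn8 had 17.9, 14.5 and 13.0 TPM and Slfn3 had 15.1, 12.2 and 10.3 TPM. In WT the library values of Slfn5, Slfn8 and Slfn3 overlapped each with its neighbour in this order, as did Slfn4 and Slfn1, and the other neighbours did not overlap. In GILZ KO no neighbours overlapped, and in GILZ TG Slfn5 and Slfn8 did. TPM is scaled by transcript length, so these levels can be set against each other.

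Slfn1 had 0, 0 and 2 counts in the 3 untreated WT libraries, 1, 3 and 1 in GILZ KO and 0, 1 and 3 in GILZ TG. Slfn4 had 0.22, 0.05 and 0.17 TPM in untreated WT, 0.38, 0.21 and 0.24 TPM in GILZ KO, while GILZ TG had 0.13, 0.24 and 0.22 TPM. In expected counts, untreated Slfn4 ran from 3.03 to 21.3 per library, and for both genes the genotypes overlapped.

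**Figure D1:**
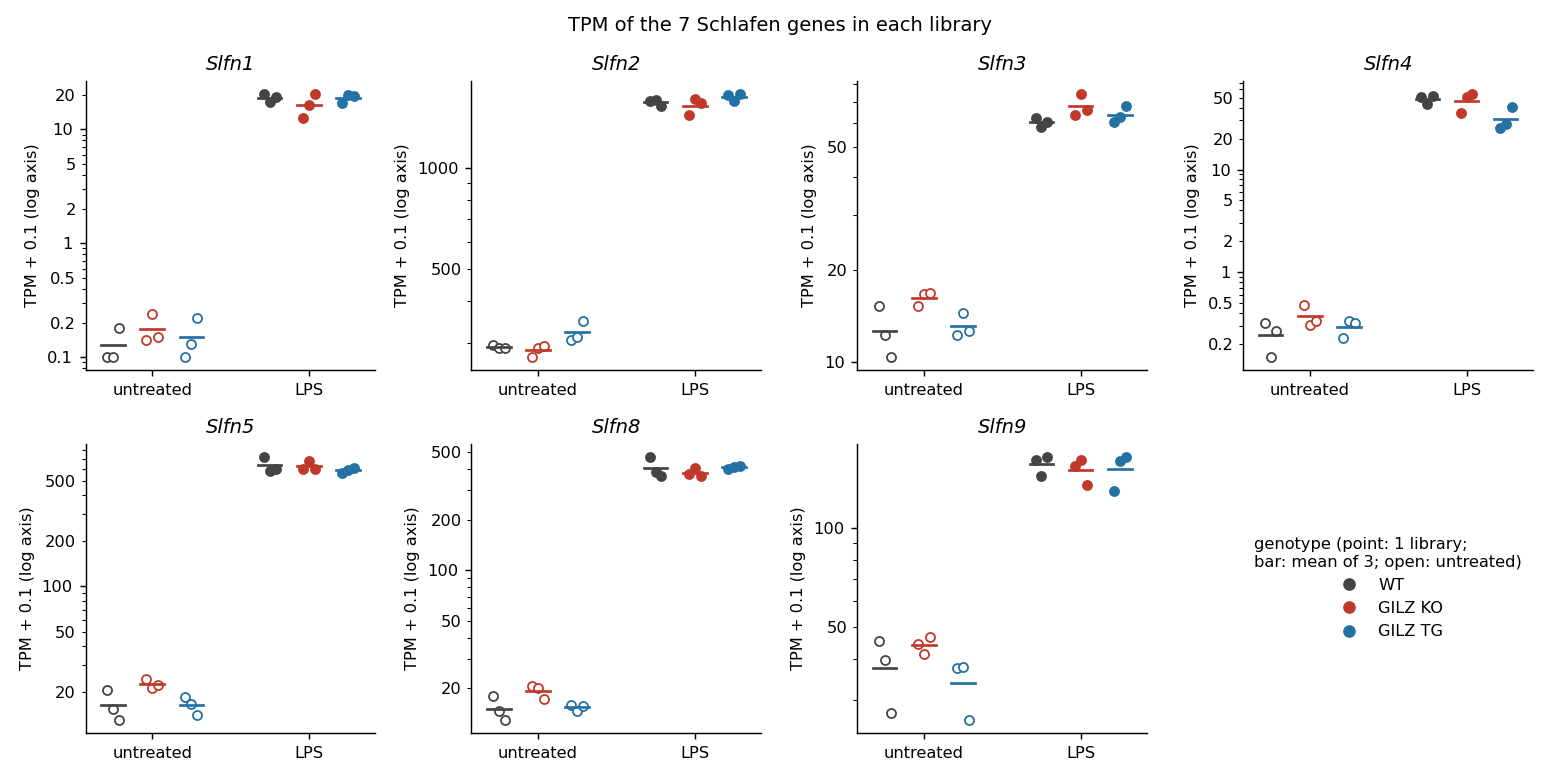
TPM + 0.1 of each Schlafen gene on a log axis, 1 panel per gene, with 1 point per library (open: untreated, filled: 4 h LPS) and a bar at the mean of 3 libraries in each of the genotypes. In every panel all 9 LPS libraries lie above all 9 untreated ones; untreated Slfn1 and Slfn4 lie near the bottom of the axis.

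LPS raised all 7 members in all 3 genotypes. In WT all 7 passed the test upwards (edgeR quasi-likelihood test, Benjamini-Hochberg adjusted p under 0.05), against 33.5% of the 13169 genes tested. The counts were 7 of 7 in GILZ KO, against 33.2%, and 7 of 7 in GILZ TG, against 33.6%. The median log2 fold change of the members was 5.37 in WT, 4.97 in GILZ KO and 5.40 in GILZ TG, and that of all genes tested was -0.02 in each genotype. No LPS library overlapped an untreated one for any member in any genotype. The share of all genes without such overlap was not counted. In either direction, 68.6%, 68.5% and 68.7% of all genes tested were called in WT, GILZ KO and GILZ TG.

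The members fell into 3 sizes of response, which did not follow the length classes. Slfn1 and Slfn4 went from near absence to a clear signal. Slfn1 reached 20.3, 17.2 and 19.2 TPM in the WT LPS libraries, 12.4, 16.2 and 20.2 TPM in GILZ KO, while GILZ TG had 16.8, 20.0 and 19.4 TPM. Its summed counts went from 2 to 1411 in WT, a ratio of 1260 after TMM scaling with a 95% exact counting interval of 348 to 10400. In GILZ KO the counts gave 334 (142 to 1030), in GILZ TG they gave 539 (210 to 1980), and all 3 intervals overlapped. These intervals cover counting error only. The edgeR adjusted p was 3.76e-13, 1.65e-12 and 6.09e-13 in WT, GILZ KO and GILZ TG.

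Slfn4, the intermediate member known from myeloid cells, reached 50.9, 43.3 and 51.3 TPM in WT after LPS. Its summed counts gave a ratio of 560 (379 to 866) in WT, 257 (189 to 360) in GILZ KO and 239 (168 to 352) in GILZ TG. The WT interval did not overlap the other two, but it rested on 25 untreated counts in WT, 40 in GILZ KO and 31 in GILZ TG, and the test of the difference over libraries was not passed (adjusted p = 0.874 for GILZ KO minus WT and 1 for GILZ TG minus WT, edgeR). In WT, Slfn1 held place 19 and Slfn4 place 40 among the 13169 genes ordered by log2 fold change.

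Slfn5 and Slfn8, a pair of long members, changed by a middle amount from a moderate level. Slfn5 reached 719, 579 and 599 TPM in WT, 594, 675 and 595 TPM in GILZ KO, while GILZ TG had 561, 590.1 and 606 TPM. Its log2 fold change was 5.92 ± 0.16 in WT (SE, 60.7-fold, adjusted p = 2.04e-15), 5.42 ± 0.15 in GILZ KO and 5.83 ± 0.16 in GILZ TG. Slfn8 reached 470.2, 385 and 361 TPM in WT, 372, 403 and 361 TPM in GILZ KO, while GILZ TG had 399, 411 and 417 TPM. Its log2 fold change was 5.37 ± 0.12 in WT (41.2-fold, adjusted p = 2.64e-16), 4.97 ± 0.12 in GILZ KO and 5.40 ± 0.12 in GILZ TG. After LPS Slfn5 and Slfn8 stood above Slfn9, which had been the second most abundant member in untreated cells.

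Slfn2, Slfn3 and the long member Slfn9 rose by less. Slfn2 reached 1580.1, 1588 and 1530.5 TPM in WT after LPS, the highest level of the family, with a log2 fold change of 3.06 ± 0.08 in WT (8.31-fold, adjusted p = 1.74e-15), 3.06 ± 0.08 in GILZ KO and 2.97 ± 0.08 in GILZ TG. Slfn3 reached 62.3, 58.1 and 60.3 TPM in WT, with a log2 fold change of 2.90 ± 0.11 (7.46-fold, adjusted p = 2.03e-13). Slfn9 reached 161, 144 and 164 TPM in WT, with a log2 fold change of 2.67 ± 0.16 (6.38-fold, adjusted p = 7.47e-11). For the neighbouring pair Slfn8 and Slfn9, alike in promoter, the 95% intervals of the log2 fold change in WT were 5.11 to 5.62 and 2.35 to 3.00, without overlap. After LPS the order by TPM was Slfn2, Slfn5, Slfn8, Slfn9, Slfn3, Slfn4 and Slfn1 in every genotype, and no neighbours in it overlapped.

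**Figure D2:**
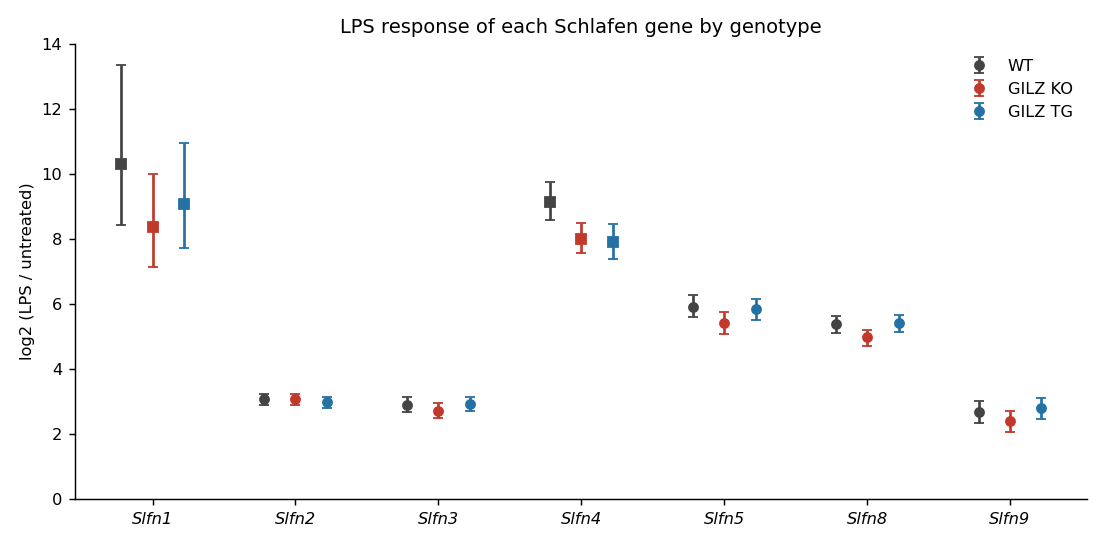
Log2 of the LPS to untreated ratio of each Schlafen gene in the 3 genotypes. Circles are edgeR log2 fold changes with 95% confidence intervals from 3 against 3 libraries; squares (Slfn1, Slfn4) are ratios of summed counts with 95% exact counting intervals. Slfn1 and Slfn4 lie near 8 to 10, Slfn5 and Slfn8 near 5 to 6, and Slfn2, Slfn3 and Slfn9 near 2 to 3.

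The scaling moved the size of these changes but not their direction. With the library total in place of TMM the median of all genes in WT became -0.70 and the members ran from 1.99 to 9.34 on the log2 scale, so relative to the median gene the changes were close to those above. All 7 members stayed past the threshold in each genotype under every alternative run. Reads shared between paralogs touched the members' counts little. Of the 75-base windows of the members' transcripts, 6.99% in Slfn8 and 5.9% in Slfn9 occurred in another Schlafen gene, mainly the pseudogene Slfn10-ps, 1.32% to 1.78% did in Slfn2, Slfn3 and Slfn4, and none did in Slfn1 or Slfn5. In libraries with at least 10 counts of a member, the posterior SD of the authors' count was at most 4.71% of the count, for Slfn4, which had that many in 14 of 18 libraries.

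The other Schlafen genes were read beside the members. Slfn10-ps, which lies between Slfn8 and Slfn2, went from 15.5 ± 5.97 to 27.7 ± 4.09 TPM in WT (log2 fold change 1.48 ± 0.19, adjusted p = 2.41e-06). Its mean expected counts in WT went from 893 to 1365, beside 861 to 19724 for Slfn8 and 2558 to 9059 for Slfn9. The part of reads shared with Slfn8 and Slfn9 in the rise of Slfn10-ps was not tested. Slfn14, Slfnl1 and Slfn5os, an antisense transcript that overlaps Slfn5, had too few counts to be tested. Unc45b, the protein-coding gene next to the cluster on the Slfn5 side, was not tested for the same reason.

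**Figure D3:**
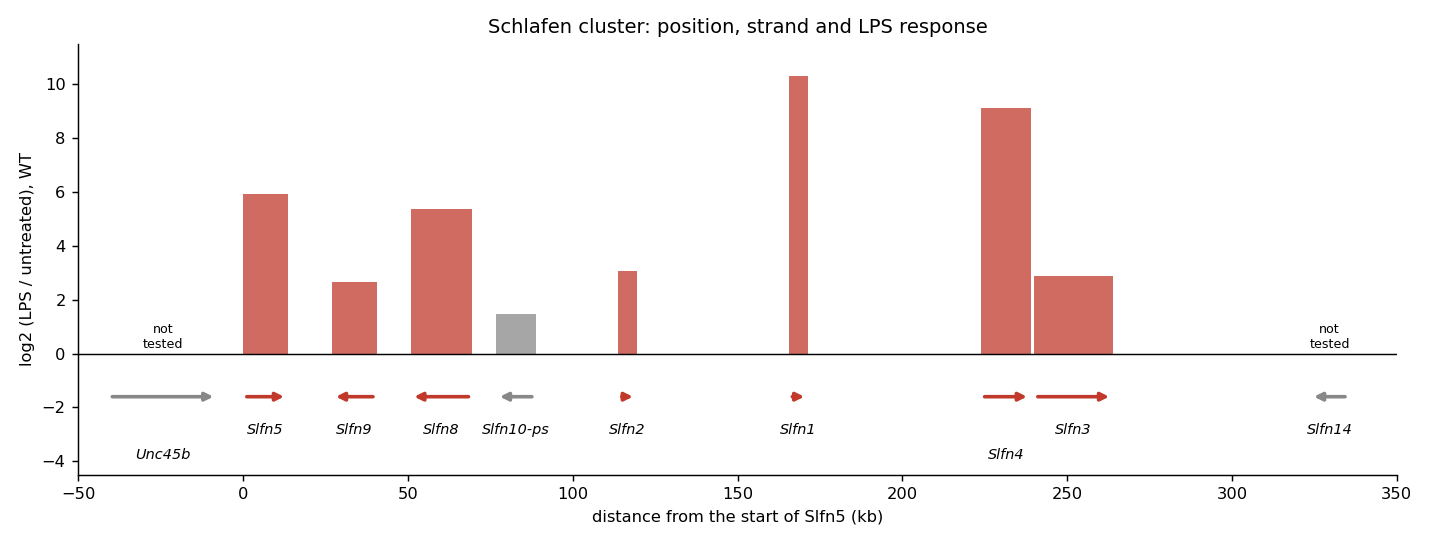
Position of the Schlafen genes and of Unc45b, in kb from the start of Slfn5 (x axis; arrows give the strand), and the log2 LPS to untreated ratio in WT (bars; red: members, grey: others; Slfn1 and Slfn4 from summed counts, the rest from edgeR). The 7 members rose between 2.67 and 10.3 on the log2 scale and Slfn10-ps by 1.48, while Unc45b and Slfn14 were not tested.

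Genotype was compared next within each treatment, to ask whether the amount of GILZ moved the family. In untreated cells no member passed the edgeR test in GILZ KO against WT (0 of the 6 tested, 0.0951% of all 12621 genes called), in GILZ TG against WT (0 of 6, 0.642% called) or in GILZ KO against GILZ TG (0 of 6, 4.94% called). Slfn1 had too few counts to be tested. At an unadjusted p under 0.05 there were 3, 0 and 4 members in these comparisons, beside 9.6%, 14.1% and 24.6% of all genes. DESeq2 called 0, 0 and 2 of them, and limma on log2(TPM + 1) called 0 in each.

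Slfn5, Slfn8 and Slfn2 had adjusted p-values on either side of the threshold in GILZ KO over GILZ TG, depending on the setting. Slfn5 had 24.4, 21.1 and 22.1 TPM in untreated GILZ KO, 18.5, 16.6 and 13.97 TPM in GILZ TG and, as above, 20.6, 15.3 and 13.0 TPM in WT. All GILZ KO libraries lay above all others, while WT and GILZ TG overlapped. In untreated GILZ KO against WT, 17.2% of all genes tested likewise did not overlap. The log2 fold change of GILZ KO against WT was 0.45 ± 0.14 (adjusted p = 0.397, edgeR) and that against GILZ TG was 0.46 ± 0.14 (adjusted p = 0.0809). DESeq2 gave an adjusted p of 0.0267 for the latter and limma on log2(TPM + 1) gave 0.152. The edgeR value was 0.0199 with a replicate block, and leaving out single replicates gave values from 0.0332 (without WT replicate 1) to 0.244 (without GILZ KO replicate 1).

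Slfn8 had 20.5, 20.0 and 17.3 TPM in GILZ KO, while GILZ TG had 15.9, 14.6 and 15.7 TPM, without overlap. WT overlapped both, and the log2 fold change of GILZ KO against WT was 0.26 ± 0.09 (adjusted p = 0.42). Its log2 fold change of GILZ KO against GILZ TG was 0.29 ± 0.09 (adjusted p = 0.0837), and the adjusted p was 0.0591 with DESeq2 and 0.175 with limma on log2(TPM + 1). Leaving out single replicates gave values from 0.0413 (without WT replicate 1) to 0.251 (without GILZ KO replicate 1). WT libraries enter this comparison through the shared estimate of the spread, the TMM scaling and the filter that sets which genes are tested. Slfn3 had 15.1, 16.5 and 16.7 TPM in GILZ KO, while GILZ TG had 12.1, 14.4 and 12.5 TPM (log2 fold change 0.28 ± 0.12, adjusted p = 0.185). Slfn9 had 44.2, 41.3 and 46.5 TPM in GILZ KO, while GILZ TG had 37.3, 37.7 and 26.0 TPM (0.35 ± 0.16, adjusted p = 0.207). Slfn2 went the other way, at 272, 289.7 and 294 TPM in GILZ KO, while GILZ TG had 305, 313 and 349 TPM (-0.21 ± 0.07, adjusted p = 0.0845). For Slfn2 DESeq2 gave an adjusted p of 0.0255, the replicate block 0.0485 and limma 0.134, and leaving out single replicates gave values from 0.0733 to 0.262.

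The GILZ KO and GILZ TG libraries did not overlap for 5 of the 6 members tested, 4 of them higher and Slfn2 lower in GILZ KO, and the same was true of 28.7% of all genes tested. The median log2 fold change was 0.32 over the 6 members and 0 over all genes tested. Endothelial markers summed to 33.4 to 39.9 TPM in untreated GILZ KO, above the 23.3 to 28.0 TPM of WT and the 17.4 to 24.6 TPM of GILZ TG without overlap. Most of this sum was Vwf. Kdr (up to 9.67 TPM) and Cdh5 (up to 2.73 TPM) were also above 0 in all 18 libraries, while Emcn was at 0 in 6 and Cldn5 in 13. The part of these markers in the untreated differences was not tested.

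Transcript length moved with these values. Slfn5, Slfn8 and Slfn9 have listed lengths of 3866, 3563 and 4264 bases and Slfn2 of 1664 bases. Over all genes, the median log2 fold change of GILZ KO against GILZ TG in untreated cells was 0.10 for the 3319 genes above 3500 bases and -0.07 for the 5036 genes below 2000 bases. In GILZ KO against WT these medians were 0.07 and -0.05. With the length trend of each library removed, a setting chosen after seeing the data, Slfn5 had a log2 fold change of 0.39 (adjusted p = 0.0849), Slfn8 of 0.24 (adjusted p = 0.104) and Slfn2 of -0.16 (adjusted p = 0.0996) for GILZ KO over GILZ TG. Slfn3, at 1816 bases, had 0.31 (adjusted p = 0.162) in the same setting. Without GILZ TG replicates 1 and 2, also chosen after seeing the data, Slfn5 had 0.63 (adjusted p = 0.18), Slfn8 0.26 (adjusted p = 0.364) and Slfn2 -0.34 (adjusted p = 0.105), where the single GILZ TG library left is assumed to vary like the other groups.

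**Figure D4:**
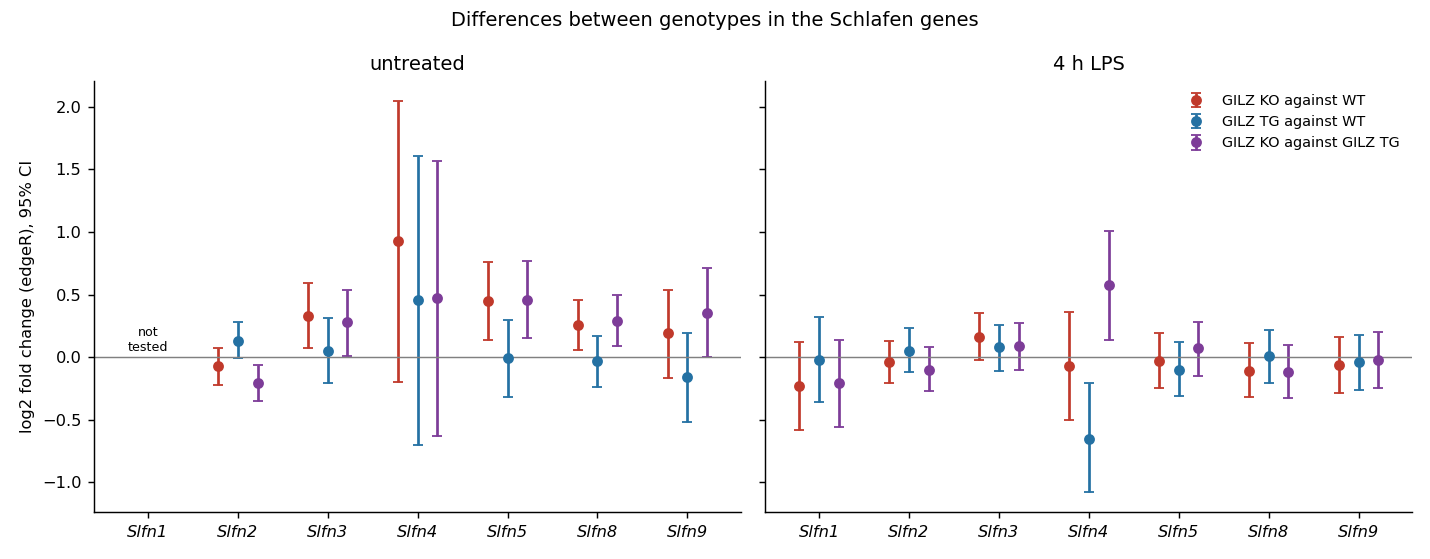
Log2 fold changes between genotypes (y axis, edgeR, with 95% confidence intervals) for each Schlafen gene, untreated (left) and after 4 h LPS (right); Slfn1 was not tested in untreated cells. In the left panel Slfn5 has 0.45 and 0.46 in the comparisons of GILZ KO with WT and with GILZ TG; in the right panel Slfn4 has -0.65 in GILZ TG against WT.

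After LPS no member passed the edgeR test in GILZ KO against WT (0 of 7, 0.0822% of all 12164 genes called), in GILZ TG against WT (0 of 7, 0.46% called) or in GILZ KO against GILZ TG (0 of 7, 2.6% called). At an unadjusted p under 0.05 there were 0, 1 and 1 members, in both cases Slfn4, beside 9.63%, 15.2% and 19.1% of all genes, and DESeq2 and limma called 0 in each comparison. For the other 6 members the log2 fold changes lay between -0.23 and 0.16 in all 3 comparisons. Slfn5 and Slfn8 had -0.03 (95% interval -0.25 to 0.19) and -0.11 (-0.32 to 0.11) against WT after LPS.

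Slfn4 had 25.1, 27.9 and 40.2 TPM in GILZ TG after LPS, below the 50.9, 43.3 and 51.3 TPM of WT without overlap. GILZ KO had 35.1, 50.8 and 53.9 TPM and overlapped both. In GILZ TG against WT after LPS, 15.2% of all genes tested likewise did not overlap. The log2 fold change of GILZ TG against WT was -0.65 ± 0.20 (95% interval -1.08 to -0.21, adjusted p = 0.165, edgeR), and that of GILZ KO against GILZ TG was 0.58 ± 0.20 (adjusted p = 0.138). Without GILZ TG replicate 3, the highest of its group, these became -0.90 (adjusted p = 0.00797) and 0.83 (adjusted p = 0.00923). With another replicate left out in turn, the adjusted p of GILZ TG against WT lay between 0.157 and 0.463.

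The GILZ TG libraries with the lower Slfn4 values were also those with markers of other cells. After LPS, stromal markers summed to 80.9, 111 and 8.88 TPM in GILZ TG replicates 1, 2 and 3, against 13.2 to 20.7 TPM in WT and 8.09 to 13.8 TPM in GILZ KO. Neutrophil lineage markers summed to 218, 517 and 83.6 TPM in these replicates, against 20.7 to 77.4 TPM in WT and 53.4 to 66.4 TPM in GILZ KO, largely S100a8 and S100a9. Over all 18 libraries Ngp reached 88.3, Ltf 33.6 and Camp 10.9 TPM, while Ly6g stayed at or below 0.24 TPM. B lineage markers summed to 82.0, 149.8 and 26.0 TPM, against 19.7 to 22.5 TPM in WT and 16.8 to 19.5 TPM in GILZ KO. Their part in the Slfn4 result was not tested. Without GILZ TG replicates 1 and 2, a setting chosen after seeing the data, Slfn4 had a log2 fold change of -0.23 against WT (adjusted p = 0.878) and 0.16 for GILZ KO over GILZ TG (adjusted p = 0.834), from a single remaining GILZ TG library.

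The difference between the LPS responses of the genotypes was tested directly. No member passed in GILZ KO minus WT (0 of 7, 0.0152% of 13169 genes called), in GILZ TG minus WT (0 of 7, 0.00759% called) or in GILZ KO minus GILZ TG (0 of 7, 0.121% called) by edgeR. At an unadjusted p under 0.05 there were 2, 0 and 2 members, beside 6.36%, 3.09% and 9.92% of all genes, and neither DESeq2 nor limma on log2(TPM + 1) called any. Slfn5 had a difference of -0.50 ± 0.18 on the log2 scale in GILZ KO minus WT (95% interval -0.89 to -0.12, adjusted p = 0.683). Slfn8 had -0.40 ± 0.14 in GILZ KO minus WT (-0.70 to -0.10, adjusted p = 0.681) and -0.43 ± 0.14 in GILZ KO minus GILZ TG (-0.73 to -0.13, adjusted p = 0.263, 0.0324 with the replicate block). Slfn2 had the narrowest interval, at 0.01 ± 0.10 (-0.21 to 0.23) in GILZ KO minus WT. For Slfn1 and Slfn4 the intervals were wide, -4.13 to 0.83 and -2.53 to 0.44 in GILZ KO minus WT, and their untreated counts were low. Over all genes the median difference in GILZ KO minus WT was -0.11 above 3500 bases and 0.03 below 2000 bases. With the length trend of each library removed, Slfn5 had -0.43 and Slfn8 had -0.34 in that contrast. These 3 contrasts share libraries and are given side by side. The edgeR tests reported did not pair untreated and LPS libraries of 1 number. With such pairs as the block, 144 genes were called in GILZ KO minus GILZ TG, against 16 without it.

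The other genes of the type I interferon pathway were read in the same fits, from a list of 36 genes by role. Of its 33 genes tested, 32 rose and 1 fell after LPS in each genotype. Of all genes tested, 33.5%, 33.2% and 33.6% passed upwards in WT, GILZ KO and GILZ TG. Interferon beta itself, Ifnb1, was listed at 0 in all 9 untreated libraries and reached 12.2 ± 3.98 TPM in WT, 10.2 ± 0.40 TPM with GILZ KO and 17.8 ± 2.51 TPM with GILZ TG. Ifna4, Ifna2 and Ifna5 had too few counts to be tested. The receptor genes, kinases and TLR4 adaptors, 2 of each, rose, with medians of 1.13, 1.41 and 1.15 on the log2 scale in WT. Among the 6 transcription factors, Irf7, the factor that amplifies interferon production, rose by 6.21 ± 0.20 in WT, and Irf3 was the gene that fell (-0.45 ± 0.06). All 18 interferon-stimulated genes rose, with a median of 7.90 in WT, among them Isg15, the ubiquitin-like modifier, by 7.50, Ifit1, which binds foreign RNA, by 9.29, and Mx1, the antiviral GTPase, by 9.46. The long Schlafen members and Slfn2 and Slfn3 changed by less than this median, and Slfn1 and Slfn4 by more.

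Between genotypes, 5 of the 32 genes of the list tested were higher in untreated GILZ KO than in GILZ TG and none was lower, against 4.94% of all genes called in either direction. They were Ifit1 (log2 fold change 1.16 ± 0.23, adjusted p = 0.023), Ifit2, Ifit3, Ifih1 and Eif2ak2, the last 4 of which are named because they passed. After LPS, 3 of 33 were lower in GILZ KO cells than in GILZ TG cells and none was higher, against 2.6% of all genes called. The 3 were Mx1 (-0.47 ± 0.08, adjusted p = 0.0168) and, named because they passed, Mx2 and Irf1. These counts depended on single libraries. The untreated count became 0 without GILZ KO replicate 1 or 2 or without GILZ TG replicate 1 or 2, 2 without WT replicate 2, 3 without GILZ KO replicate 3, 9 without WT replicate 3 and 13 without GILZ TG replicate 3, and it was 0 without both GILZ TG replicates 1 and 2. The count after LPS became 0 without GILZ KO replicate 1 or 3 or GILZ TG replicate 1. It was 1 when GILZ TG replicate 2 was left out, 5 when replicate 3 was, and 0 without GILZ TG replicates 1 and 2. Against WT no gene of the list passed by edgeR in GILZ KO or GILZ TG in either treatment, where DESeq2 called 3 in untreated GILZ KO and 2 in GILZ TG after LPS. The median log2 fold change of the 18 interferon-stimulated genes in GILZ KO against GILZ TG was 0.43 untreated and -0.21 after LPS, beside 0.32 and -0.02 for the Schlafen members tested.

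**Figure D5:**
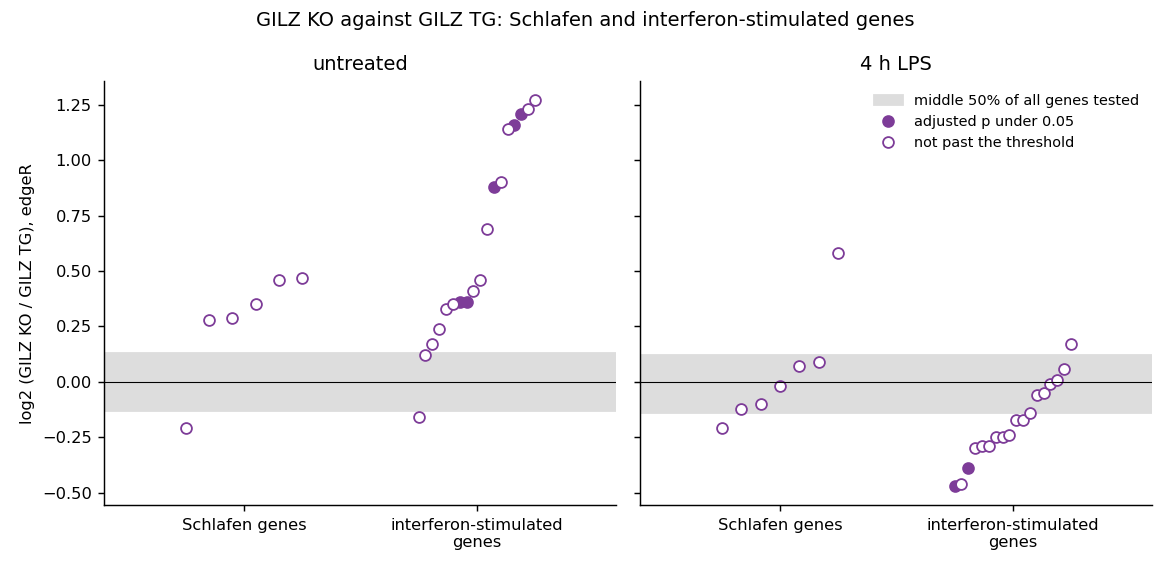
Log2 fold changes of GILZ KO against GILZ TG (y axis, edgeR), untreated (left) and after 4 h LPS (right), for the Schlafen genes and the 18 interferon-stimulated genes of the list, each point 1 gene; filled points passed an adjusted p of 0.05, and the grey band is the interquartile range of all genes tested. No Schlafen gene is filled; 5 interferon-stimulated genes are filled and positive on the left, 2 filled and negative on the right.

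The genes whose pattern over the 18 libraries was most like that of each member were found by Pearson's r of log2 CPM (counts scaled to library size) over the 13169 genes tested, as a description. Since every member follows LPS, these values are all high, and the 21 pairs of members lay between 0.98 and 1.00. The leading gene was Trex1 for Slfn1, Myd88 for Slfn2, Psd4 for Slfn3, Trim30d for Slfn4, Cflar for Slfn5, Parp14 for Slfn8 and Ranbp2 for Slfn9. With the values centred within each treatment, so that LPS itself no longer counts, the pairs of members spread from -0.54 (Slfn2 and Slfn9) to 0.84 (Slfn5 and Slfn8), with a median of 0.37. Herc1 (0.951), Hmbox1 (0.945), Cdk12 (0.941) and Rnf213 (0.935) were then among the 5 genes most like Slfn5. The 5 genes most like Slfn2 were Adprh, Wdr61, Marcksl1, U2af1l4 and Guca1a (0.855 to 0.93), with a median of 1201 bases. The 5 genes most like Slfn5, Slfn8 and Slfn9 had medians of 6687, 7317 and 8753 bases, and those most like Slfn3 of 1881 bases. The median over all genes tested was 2367 bases. For Slfn8 the leading genes were Parp14 and Alpk1, for Slfn9 Sel1l and Ranbp2, and for Slfn3 D16Ertd472e and Psd4. The centred values of Slfn1 and Slfn4 rest on counts near 0 in the untreated libraries, and their leading genes were Anapc16 (0.771) and Zfp455 (0.719). The points of these correlations share libraries and depth, and were not corrected for transcript length.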

How the data were processed

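Poly(A) RNA of the 18 libraries was sequenced as single 75-base reads with a directional kit. The authors checked reads with FastQC 0.11.2, mapped and quantified them against GRCm38 with the grape-nf pipeline and deposited, for each library, expected counts (estimated, not always whole) and TPM per gene; the strand setting is not given in the sources used here. The authors also deposited 9 comparison tables from DESeq2 1.40.2 with base means, fold changes and p-values, from which only gene symbols were used (20999 genes each; 37570 identifiers in all had a symbol).

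Expected counts were rounded and tested with edgeR 4.0.16 in R 4.3.3 (TMM, filterByExpr, quasi-likelihood F test), with Benjamini-Hochberg adjustment over all genes tested and a threshold of 0.05. LPS responses and their differences were fitted over all 18 libraries, and genotypes within each treatment over 9. DESeq2 1.42.0, limma 3.58.1 on log2(TPM + 1) and log2(TPM + 0.1), other filters and scalings, left-out replicates and a replicate block were alternatives. For genotypes within a treatment the block was the replicate number. For LPS responses and their differences it joined the untreated and LPS library of 1 genotype and number, taken as 1 preparation. The edgeR script was tested on simulated data. Levels are TPM, and fold changes are on the count scale. Ratios of summed counts have exact 95% intervals. Promoters came from RefSeq, and positions and transcripts from GENCODE. Named genes were the 7 members, Tsc22d3, other Schlafen genes, the coding neighbours of the cluster, Ifnb1, Irf7, Isg15, Ifit1 and Mx1 of the interferon list, and for each member the 5 genes of highest correlation; some genes that this rule names are not reported here. The members and lists were chosen with earlier results of these data known. Libraries of a group are separate preparations; an exact permutation test of 3 against 3 cannot go below p = 0.1, so the test across all genes was used. Across genotypes the replicate numbers did not pair the samples (3 of 18 correlations of deviations above 0.1). Between untreated and LPS libraries of 1 number, 4 of 9 were above 0.1, with all 3 in GILZ TG. The block changed no call of a member in the LPS comparison within GILZ TG. There the members were far past the threshold without it (adjusted p at most 4.56e-11, edgeR), so unchanged calls say little of the pairing. The calls of members that the block changed between genotypes are given with the results.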

Additional observations from a re-analysis of the deposited data

Results flagged for a closer look

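The LPS response of the targeted gene Tsc22d3 differed between genotypes by the test of the difference itself. The difference was 2.02 ± 0.22 on the log2 scale in GILZ KO minus WT (adjusted p = 0.000782, edgeR) and 1.43 ± 0.16 in GILZ TG minus WT (adjusted p = 0.00139, and 0.281 without GILZ TG replicates 1 and 2). In TPM all 3 WT libraries were lower after LPS than untreated. The same held in GILZ TG (152 to 160 TPM untreated, 127 to 141 TPM after LPS), while GILZ KO libraries overlapped. Mean expected counts in GILZ TG were 2743 untreated and 2735 after LPS. On the TMM-scaled counts of the edgeR test Tsc22d3 rose in GILZ TG, by the value given in the last section. The GILZ TG values were not split between the endogenous gene and the Gilz-1 cDNA. In untreated cells their mean was 156 TPM, against 16.5 TPM in WT.

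Among the 33 interferon pathway genes tested, 2 differed in their LPS response between GILZ KO and GILZ TG, against 0.121% of all genes called. Ifit1 had a difference of -1.47 ± 0.24 (adjusted p = 0.0237) and Mx2 of -1.69 ± 0.29 (adjusted p = 0.0258). Without GILZ TG replicate 1 their adjusted p was 0.129 and 0.147, without GILZ TG replicate 2 it was 0.167 for both, without GILZ KO replicate 1 it was 0.123 and 0.152, and without WT replicate 2 it was 0.0627 for both. Ifit1 was at 12.1 TPM in untreated GILZ KO and 5.28 TPM in untreated GILZ TG. No Schlafen gene was among the results that differed between genotypes in this way.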

How the results depend on the processing

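All 7 Schlafen members rose after LPS in each genotype under every alternative run. Of the members' log2 fold changes under alternatives, 1563 kept direction and side of the threshold, 16 passed the threshold where the reported test did not, 59 that were not called changed sign, and no called value reversed. In untreated GILZ KO against GILZ TG, where the reported count of members past the threshold was 0, it was 2 with DESeq2, 1 with no filter on low counts, 2 with only the 6 libraries compared and 2 with the replicate block, and 0 to 2 when leaving out each replicate. After LPS the count with no filter was 1 for GILZ TG against WT and 1 for GILZ KO against GILZ TG, both Slfn4, and 0 to 1 when leaving out each replicate in both. For the difference of LPS responses in GILZ KO minus GILZ TG the replicate block gave 1 call, Slfn8 (-0.43, adjusted p = 0.0324). The replicate block changed no other count of members, and the cause of these changes was not tested. Over all genes, counts between genotypes moved widely, from 34 to 1306 in untreated GILZ KO against GILZ TG (623 reported) and from 24 to 1403 after LPS (316 reported). They ran from 5 to 79 (12) and 16 to 665 (81) for untreated GILZ KO and GILZ TG against WT, from 4 to 100 (10) and 15 to 1067 (56) after LPS, and from 1 to 21 (2), 0 to 15 (1) and 0 to 144 (16) for the differences of responses to LPS in GILZ KO minus WT, GILZ TG minus WT and GILZ KO minus GILZ TG. Of the interferon genes, the untreated GILZ KO against GILZ TG count (5 reported) was 11 with DESeq2, 9 with no filter, 8 with the stricter filter, 2 with limma at either pseudocount, 9 with all 18 libraries in 1 fit, 0 without GILZ TG replicates 1 and 2 and 0 to 13 when leaving out each replicate. After LPS (3 reported) it was 7 with DESeq2, 1 with all 18 libraries, 0 without GILZ TG replicates 1 and 2 and 0 to 5 when leaving out each replicate. Against WT (0 reported) it was 3 with DESeq2 in untreated GILZ KO, and after LPS in GILZ TG 2 with DESeq2, 1 with all 18 libraries and 0 to 1 when leaving out each replicate. For the differences of responses it was 2 with DESeq2 and 1 with no filter in GILZ KO minus WT (0 reported), and in GILZ KO minus GILZ TG (2 reported) 7 with DESeq2, no filter or the replicate block, 1 with limma at either pseudocount, 0 without GILZ TG replicates 1 and 2 and 0 to 5 when leaving out each replicate. The LPS response of Tsc22d3 in GILZ TG was 0.33 by edgeR with TMM. It reversed to -0.24 with limma at either pseudocount and to -0.34 with the library total. On these scales the median of all genes is lower. Low untreated counts limit what can be said of Slfn1 and Slfn4 between genotypes.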
